A study of Mus musculus with 27 samples.

Results

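Mast cell and basophil genes were followed through the lungs of mice in a model of allergic airway disease. The set consists of 10 genes chosen by name: Cpa3, Mcpt4, Mcpt8, Cma1, Tpsb2, Ms4a2, Fcer1a, Kit, Gata2 and Hdc. Of these, 9 had a row among the 21742 gene symbols of the linear RNA table, and Cma1, a mast cell chymase gene, was not analysed here. Expression of 8 of the 9 passed the filter of at least 1 TPM (a transcript abundance normalized for length and library total) in at least 5 of 27 libraries, and Mcpt8 did not.

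The source was the left lobe of the lung of 87-day-old BALB/c AnNHsd mice, with 1 library from each animal. Dex_CDGHDM mice (n = 6) underwent a 35-day lung sensitization with house dust mite extract (HDM) plus CDG, cyclic di-GMP, a STING-activating dinucleotide that serves as mucosal adjuvant. They also received dexamethasone, a glucocorticoid, at 3 mg/kg by the intraperitoneal route on each of days 11, 18 and 25. AM155 mice (n = 6) were injected intravenously on those days with 2 mg/kg of antisense miR-155 carried by lipid nanoparticles, and their labels do not state in words that they were sensitized. CDG_HDM mice (n = 10) were sensitized and given no further agent, Saline mice (n = 5) were not sensitized, and no group given empty nanoparticles was analysed here.

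Mast cells are tissue-resident granulocytes that mature under the receptor tyrosine kinase Kit and its ligand, stem cell factor, and store histamine, heparin and proteases in their granules. Basophils are circulating granulocytes that share the high-affinity IgE receptor with mast cells and enter tissues during allergic responses. Crosslinking of that receptor by allergen releases the granule contents of both cells. Some genes of the set are not restricted to them: Gata2 and Kit are also expressed by lung endothelium, where Kit marks a class of capillary cells, and Kit also by progenitors, melanocytes and some innate lymphoid cells.

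GATA2, the factor encoded by Gata2, binds GATA motifs and is required in both lineages, so the promoters of 9 members were searched for AGATAA and TGATAA on both strands in the 250 bases before the start site (RefSeq, GRCm38.p6). A match was present for Cpa3, Mcpt4, Ms4a2 and Fcer1a and for none of Mcpt8, Cma1, Kit, Gata2 and Hdc, and the promoter of Tpsb2 was not analysed here. Across the 27025 promoters of the RefSeq table, 17.0% held either motif. The 120 bases before the start sites of the 4 matching genes are shown because these genes encode mast cell proteases and IgE receptor chains, and those of Kit because it is a mast cell gene without a match. Capitals mark the motif in either orientation (TTATCT is AGATAA on the opposite strand), the sequences run 5′ to 3′ on the strand of the gene, and parts of the Cpa3, Ms4a2 and Fcer1a windows lie within the annotated span of a longer transcript. The windows are chr3:20242182-20242301 (minus strand) for Cpa3, chr14:56062311-56062430 (minus) for Mcpt4, chr19:11623720-11623839 (minus) for Ms4a2, chr1:173227230-173227349 (minus) for Fcer1a and chr5:75574867-75574986 (plus) for Kit.
Cpa3: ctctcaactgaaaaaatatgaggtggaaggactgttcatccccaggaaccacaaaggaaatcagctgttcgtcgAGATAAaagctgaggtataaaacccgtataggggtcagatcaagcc
Mcpt4: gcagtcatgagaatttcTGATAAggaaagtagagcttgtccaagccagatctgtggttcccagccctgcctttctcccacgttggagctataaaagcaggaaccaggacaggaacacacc
Ms4a2: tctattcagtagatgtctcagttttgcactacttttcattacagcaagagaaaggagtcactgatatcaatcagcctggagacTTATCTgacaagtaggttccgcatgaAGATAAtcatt
Fcer1a: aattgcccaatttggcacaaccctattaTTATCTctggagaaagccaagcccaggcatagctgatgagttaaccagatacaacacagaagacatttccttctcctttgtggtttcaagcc
Kit: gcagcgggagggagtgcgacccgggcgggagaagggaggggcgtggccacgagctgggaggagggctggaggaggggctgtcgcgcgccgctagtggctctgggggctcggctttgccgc

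The first base of the motif lay 46 bases before the start in Cpa3 and 103 in Mcpt4, both on the strand of the gene. Fcer1a held 1 match at 92 bases on the opposite strand. Ms4a2 held 3, at 224 and 37 bases on the opposite strand and at 11 bases on its own, of which those at 37 and 11 are in the window shown. The Kit window was 75.8% G and C, against 38.3% in Ms4a2. CANNTG, the E-box core that MITF and other factors bind, was also counted in the 250 bases. Mcpt8 held 3 copies, Cpa3 and Fcer1a 2 each, and Cma1 and Hdc 1 each, and 66.0% of all promoters held at least 1. These matches describe letters and were not tested as binding sites.

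Linear TPM summed to 629353 to 767968 in Dex_CDGHDM, 542264 to 770987 in AM155, 628177 to 798457 in CDG_HDM and 806446 to 858506 in Saline, and the depth of each library is unknown because TPM holds no read counts. In CDG_HDM minus Saline, 1631 genes were higher and 3976 lower, and the median over all tested genes was -0.10 on the log2 scale. After median-of-ratios scaling this median was 0.005 and the split 3903 higher and 3757 lower, so each member call below that a scaling ends is named. The median over all genes was -0.11 in Dex_CDGHDM minus Saline and -0.17 in AM155 minus Saline. The 3 libraries with over 200000 TPM of circular RNA were AM155 5, AM155 6 and Dex_CDGHDM 4, and the member calls were repeated without them. In bulk lung, fewer cells of a type and less RNA per cell cannot be told apart.

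Sensitization was accompanied by lower RNA for a pair of mast cell granule proteases, Cpa3 and Tpsb2, and for Kit and Gata2. In CDG_HDM minus Saline, 5 of the 8 tested members were called lower and 0 higher (limma on log2(TPM + 1), Benjamini-Hochberg adjusted p under 0.05), where 22.8% of all tested genes were called lower. The median change of the 8 was -0.42, against -0.10 over all tested genes. Mean Cpa3 RNA in CDG_HDM differed from that in Saline by -46.4%, and Mcpt4, Ms4a2 and Hdc were not called.

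**Figure D1:**
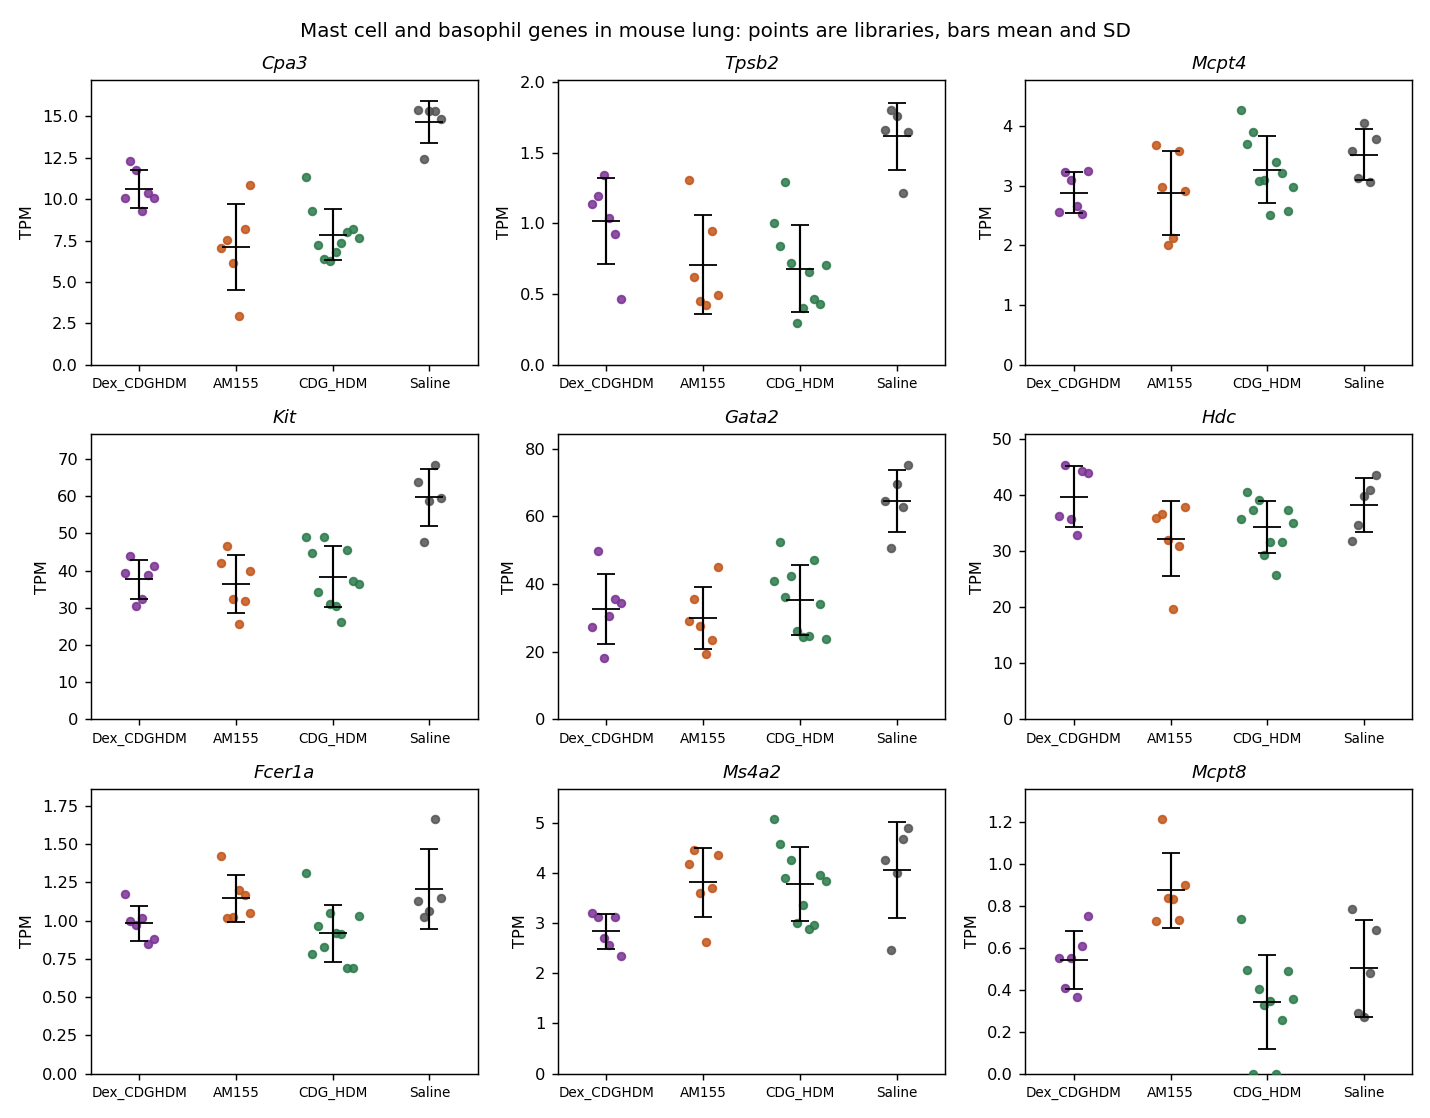
Linear TPM of the 9 mast cell and basophil genes with a row (vertical axes from 0) by group, with a point per library and bars for the mean and SD (n = 6, 6, 10 and 5 from left to right). Cpa3 in the 5 Saline libraries lies between 12.4 and 15.4 TPM, above every library of the other 3 groups, whereas Mcpt4, Hdc and Ms4a2 overlap between all groups.

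Cpa3 encodes carboxypeptidase A3, a granule metalloprotease of mast cells that basophils and their progenitors also express (chromosome 3: 20215616 to 20242209). It had 6.26, 7.49 and 11.4 TPM in CDG_HDM (lowest, median and highest of 10), against 15.4, 12.4, 15.3, 15.3 and 14.9 TPM in Saline. No CDG_HDM library reached the lowest Saline library. The number of all tested genes that separate as fully between groups was not counted, here or in the comparisons below. The mean was 7.86 ± 1.52 TPM in CDG_HDM (SD, n = 10) and 14.7 ± 1.27 TPM in Saline (n = 5), a log2 change of -0.84 ± 0.152 (SE; adjusted p = 8.32e-05). After median-of-ratios scaling the change was -0.73.

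Tpsb2 encodes tryptase beta 2, the tetrameric serine protease of connective tissue mast cells (chromosome 17: 25366308 to 25368096). Its level was 0.292, 0.681 and 1.29 TPM in CDG_HDM (lowest, median, highest) and 1.66, 1.80, 1.76, 1.21 and 1.65 TPM in Saline. Only CDG_HDM 8 lay above the lowest Saline library. The log2 change was -0.65 ± 0.124 (adjusted p = 0.000141) with the pseudocount of 1, which understates changes at this level. It was -1.22 with a pseudocount of 0.1 and -1.35 with 0.01, and the means differed by -57.9%. Tpsb2 reached 1 TPM in 4 Dex_CDGHDM, 1 AM155, 2 CDG_HDM and 5 Saline libraries. How reads were assigned between it and its related neighbour Tpsab1 is not given in the sources used here. Tpsab1 had 1.18 ± 0.209 TPM in CDG_HDM and 1.47 ± 0.204 TPM in Saline and was not called (log2 change -0.18, adjusted p = 0.164).

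Mcpt4, a chymase gene of connective tissue mast cells and the functional counterpart of human chymase, did not follow this pattern (chromosome 14: 56059744 to 56062310). It had 2.50, 3.16 and 4.26 TPM in CDG_HDM (lowest, median, highest) and 3.58, 3.14, 4.05, 3.06 and 3.78 TPM in Saline. The ranges overlapped, and the log2 change was -0.09 ± 0.103 with a 95% confidence interval of -0.30 to 0.12 (adjusted p = 0.543). Its paralogs of the same chromosomal cluster, Mcpt1 (1.62 ± 0.340 TPM in CDG_HDM and 1.95 ± 0.346 TPM in Saline) and Mcpt9 (1.63 ± 0.123 TPM and 1.70 ± 0.264 TPM), were not called either. Mrgprb2, the receptor that marks connective tissue mast cells in the mouse, was at 0.0182 to 0.137 TPM in CDG_HDM and 0.0609 to 0.154 TPM in Saline and was not tested.

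The IgE receptor is built from an alpha chain that binds IgE (Fcer1a), a beta chain that amplifies the signal (Ms4a2) and a gamma chain shared with other Fc receptors (Fcer1g, not a member). Fcer1a (chromosome 1: 173221269 to 173227232) had 0.689, 0.915 and 1.31 TPM in CDG_HDM (lowest, median, highest) and 1.13, 1.02, 1.06, 1.66 and 1.15 TPM in Saline. The groups overlapped. Its log2 change was -0.20 ± 0.0757 (adjusted p = 0.0418). This call ended under each of the 3 scalings (adjusted p = 0.180 to 0.282), with only the 2 groups compared in the fit (0.0780), and without Saline 8 (0.218), Saline 2 (0.0597), Saline 10 (0.0644) or any one of CDG_HDM 4, 5, 7, 9, 10 and 14 (0.0546 to 0.0716). Over all 40 alternatives its adjusted p ranged between 0.00601 and 0.282.

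Ms4a2 (chromosome 19: 11615517 to 11623790) had 2.89, 3.87 and 5.07 TPM in CDG_HDM and 4.25, 2.46, 4.00, 4.68 and 4.89 TPM in Saline. The groups overlapped widely, and the change of -0.07 ± 0.117 was not called (interval -0.31 to 0.17, adjusted p = 0.678). Fcer1g, the chain that macrophages, neutrophils and NK cells also use, rose to 108 ± 21.1 TPM in CDG_HDM, against 47.8 ± 5.17 TPM in Saline (log2 change 1.15 ± 0.130, adjusted p = 6.29e-08). All 10 CDG_HDM libraries (77.4 to 142.8 TPM) lay above the highest Saline library (53.1 TPM). The macrophage markers C1qa (log2 change 2.53), C1qb (2.67) and Ms4a7 (2.98), chosen for large changes, rose beside it. Of 16 dendritic cell and macrophage markers, 11 were called higher and 2 lower. Over all tested genes, 9.35% were called higher and 22.8% lower. Their part in the Fcer1g value was not tested.

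Kit, the stem cell factor receptor, and Gata2 had the highest mean levels of the members in CDG_HDM and Saline. Kit (chromosome 5: 75574987 to 75656722) had 26.1, 36.8 and 49.1 TPM in CDG_HDM (lowest, median, highest) and 63.7, 47.8, 58.9, 68.5 and 59.6 TPM in Saline. A pair of CDG_HDM libraries lay above the lowest Saline library, Saline 4. The log2 change was -0.64 ± 0.139 (adjusted p = 0.000573), and -0.53 after median-of-ratios scaling.

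Gata2 (chromosome 6: 88193891 to 88207032), a zinc finger factor of haematopoietic progenitors, mast cells, basophils and endothelium, had 23.7, 35.1 and 52.5 TPM in CDG_HDM and 64.4, 50.6, 69.6, 62.7 and 75.3 TPM in Saline. Only CDG_HDM 5 lay above the lowest Saline library. Its log2 change of -0.90 ± 0.198 (adjusted p = 0.000723) was the lowest among the 8 tested members at a pseudocount of 1, and -0.78 after median-of-ratios scaling. Kitl, which encodes stem cell factor, was also lower, at 90.2 ± 20.7 TPM in CDG_HDM and 158.7 ± 20.8 TPM in Saline (log2 change -0.83 ± 0.148, adjusted p = 6.14e-05).

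Hdc encodes histidine decarboxylase, the enzyme that makes histamine from histidine (chromosome 2: 126593659 to 126624025). It had 25.7, 35.3 and 40.4 TPM in CDG_HDM and 31.8, 34.5, 39.7, 40.9 and 43.6 TPM in Saline. The groups overlapped, with a log2 change of -0.15 ± 0.121 (interval -0.40 to 0.10, adjusted p = 0.361).

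The treated groups were also compared with Saline, and these contrasts share the 5 Saline libraries with the one above. In AM155 minus Saline, 4 members were lower (Cpa3, Tpsb2, Kit and Gata2), where 32.7% of all tested genes were called lower. In Dex_CDGHDM minus Saline, 4 were lower (Tpsb2, Ms4a2, Kit and Gata2), where 17.5% of all tested genes were. Neither contrast called a member higher as deposited. With 1 common sum Hdc was called higher in Dex_CDGHDM minus Saline (log2 change 0.26, adjusted p = 0.0309).

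Cpa3 had 9.29, 10.2 and 12.3 TPM in Dex_CDGHDM and 2.92, 7.28 and 10.9 TPM in AM155 (lowest, median, highest). Every library of both groups lay below every Saline library. In AM155 the change from Saline was -1.02 ± 0.168 (adjusted p = 2.79e-05). In Dex_CDGHDM it was -0.43 ± 0.168 and was not called (adjusted p = 0.0595), although 7 of 40 alternatives called it (adjusted p = 0.000429 to 0.195 over all).

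Kit had 30.5, 39.1 and 44.0 TPM in Dex_CDGHDM and 25.5, 36.2 and 46.7 TPM in AM155, and Gata2 18.2, 32.4 and 49.8 TPM in Dex_CDGHDM and 19.2, 28.3 and 44.9 TPM in AM155. For both genes all libraries of both groups lay below all Saline libraries. How many of all tested genes separate as fully was not counted, and every Saline library had a higher linear sum than every library of these groups. The changes from Saline were -0.65 ± 0.153 in Dex_CDGHDM and -0.72 ± 0.153 in AM155 for Kit (adjusted p = 0.00203 and 0.000549), and -1.01 ± 0.219 and -1.12 ± 0.219 for Gata2 (adjusted p = 0.000899 and 0.000213). These 4 calls, and those of Cpa3 and Tpsb2 in AM155 minus Saline and of Cpa3, Tpsb2, Kit and Gata2 in CDG_HDM minus Saline, were made in all 40 alternatives of the fit.

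Tpsb2 had 0.465, 1.09 and 1.34 TPM in Dex_CDGHDM and 0.424, 0.558 and 1.31 TPM in AM155, with 1 library of each group above the lowest Saline library. Its change from Saline was -0.39 ± 0.137 in Dex_CDGHDM (adjusted p = 0.0382) and -0.63 ± 0.137 in AM155 (adjusted p = 0.000626). The call in Dex_CDGHDM ended in 15 of 40 alternatives, among them the 3 scalings (adjusted p = 0.0903 to 0.149), smaller pseudocounts, and leaving out Saline 2, 4, 5 or 10 or Dex_CDGHDM 4, 5 or 6 (0.0560 to 0.106). The Ms4a2 change in Dex_CDGHDM minus Saline (-0.38 ± 0.130, adjusted p = 0.0305) ended in 9 of 40: with 1 common sum (0.107), and without Saline 2, 5, 8 or 10 or Dex_CDGHDM 3, 4 or 6 (0.0566 to 0.102) among them.

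**Figure D2:**
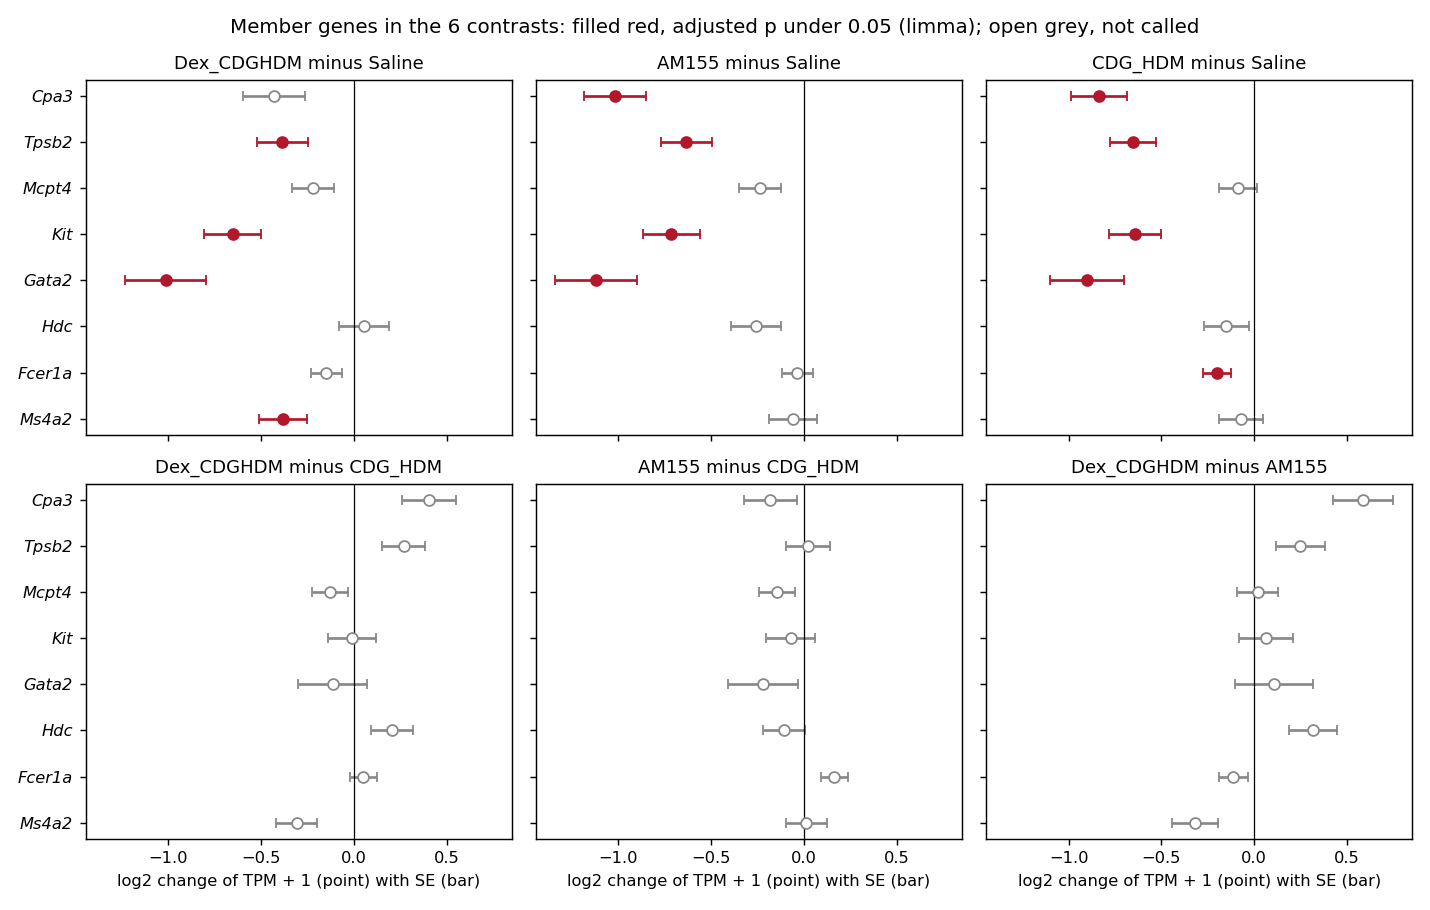
Log2 change of TPM + 1 with its SE (horizontal axes) for the 8 tested members in the 6 contrasts, the first-named group over the second. Kit and Gata2 are called lower (filled) in all 3 contrasts with Saline, Cpa3 in 2 of them, and no member is called in the lower 3 panels.

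Treatment was then set against sensitization alone. In Dex_CDGHDM minus CDG_HDM, 0 of 8 tested members were called by limma, where 0.00573% of all tested genes were called, and 3 had an unadjusted p under 0.05 (Cpa3, Tpsb2 and Ms4a2). In AM155 minus CDG_HDM, 0 of 8 were called, where 0.103% of all genes were, and 1 had an unadjusted p under 0.05 (Fcer1a). In Dex_CDGHDM minus AM155, 0 of 8 were called, where 0.0803% of all genes were, and 3 had an unadjusted p under 0.05 (Cpa3, Ms4a2 and Hdc).

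Cpa3 averaged 10.6 ± 1.15 TPM in Dex_CDGHDM and 7.86 ± 1.52 TPM in CDG_HDM (SD, n = 6 and 10), and all 6 Dex_CDGHDM libraries lay above the CDG_HDM mean. The log2 change was 0.41 ± 0.144 (interval 0.11 to 0.70), which did not pass adjustment over all genes (adjusted p = 0.810, and 0.118 to 1.0 over the alternatives). Against AM155 (7.12 ± 2.61 TPM, n = 6) the Dex_CDGHDM change was 0.59 ± 0.160 and not called (adjusted p = 0.220). It was called without AM155 11 (0.0431), the AM155 library highest in Cpa3, in a range of 0.0255 to 0.705 over the alternatives.

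Ms4a2 ran the other way, with 2.84 ± 0.350 TPM in Dex_CDGHDM, 3.82 ± 0.686 TPM in AM155 and 3.78 ± 0.730 TPM in CDG_HDM. All 6 Dex_CDGHDM libraries, between 2.35 and 3.19 TPM, lay below the CDG_HDM mean, and 3 of them below the lowest CDG_HDM library. Dex_CDGHDM minus CDG_HDM was -0.31 ± 0.111 (adjusted p = 0.841), called after quantile normalization alone among the alternatives (0.0456). Dex_CDGHDM minus AM155 was -0.32 ± 0.124 (adjusted p = 0.514), called after median-of-ratios scaling (0.0362) and quantile normalization (0.0262).

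For Kit, the interval of the log2 change was -0.28 to 0.26 in Dex_CDGHDM minus CDG_HDM and -0.34 to 0.20 in AM155 minus CDG_HDM. Hdc averaged 39.7 ± 5.38 TPM in Dex_CDGHDM, 32.1 ± 6.69 TPM in AM155 and 34.3 ± 4.64 TPM in CDG_HDM. All 6 Dex_CDGHDM libraries exceeded the AM155 mean of Hdc, and the change of 0.32 ± 0.128 was not called (adjusted p = 0.542).

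Mcpt8, a granule protease that in the mouse marks basophils (chromosome 14: 56082163 to 56085499), had its highest group mean in AM155. It had 0.367, 0.552 and 0.751 TPM in Dex_CDGHDM, 0.728, 0.836 and 1.21 TPM in AM155 and 0, 0.350 and 0.738 TPM in CDG_HDM (lowest, median, highest), against 0.786, 0.290, 0.271, 0.481 and 0.685 TPM in Saline. The level in CDG_HDM was listed at 0 in 2 libraries. All 6 AM155 libraries lay above the mean of each other group, and 4 of 6 above the highest CDG_HDM library.

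Because Mcpt8 stayed below the filter, its mean TPM was compared by two-sided exact permutation tests, together with Prss34, the other basophil granule protease on the lists. These tests, and Prss34 itself, were chosen after the values were seen. P values were adjusted over the 12 tests. For Mcpt8, AM155 minus CDG_HDM was 0.533 TPM (exact p = 0.000749, adjusted 0.00450), AM155 minus Saline 0.372 TPM (exact p = 0.0173, adjusted 0.0346) and Dex_CDGHDM minus AM155 -0.334 TPM (exact p = 0.00649, adjusted 0.0195). The other 3 contrasts of Mcpt8 did not pass (adjusted p = 0.0879 to 0.801, exact permutation tests). With 1 library left out at a time, the first had an exact p of 0.000400 to 0.00200. In limma without the filter, the log2 change of Mcpt8 was 0.50 in AM155 minus CDG_HDM (adjusted p = 0.0392), but 0.257 was the adjusted p with a pseudocount of 0.1, and Dex_CDGHDM minus AM155 was not called (adjusted p = 0.579).

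Prss34 encodes mast cell protease 11, which basophils store. It had 0.0338, 0.0933 and 0.188 TPM in Dex_CDGHDM, 0.204, 0.387 and 0.606 TPM in AM155 and 0, 0.0271 and 0.128 TPM in CDG_HDM (lowest, median, highest), against 0.214, 0.114, 0.115, 0.0599 and 0.0527 TPM in Saline. All 6 AM155 libraries lay above all Dex_CDGHDM and all CDG_HDM libraries. Prss34 was chosen after its values were seen, and how many of all genes separate as fully was not counted. The difference of means was 0.337 TPM in AM155 minus CDG_HDM (exact permutation p = 0.000250, adjusted 0.00300) and -0.274 TPM in Dex_CDGHDM minus AM155 (exact p = 0.00217, adjusted 0.00866). AM155 minus Saline was 0.265 TPM (exact p = 0.0130, adjusted 0.0312), with 1 Saline library above the lowest AM155 library. Prss34 also passed in Dex_CDGHDM minus CDG_HDM (0.0630 TPM) and CDG_HDM minus Saline (-0.0722 TPM), by exact permutation tests (adjusted p = 0.0427 each). These contrasts were not repeated with 1 library left out. Prss34 was listed at 0 in 3 CDG_HDM libraries, and 0 libraries of any group reached 1 TPM. Dex_CDGHDM minus Saline was -0.00916 TPM (adjusted exact p = 0.801).

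**Figure D3:**
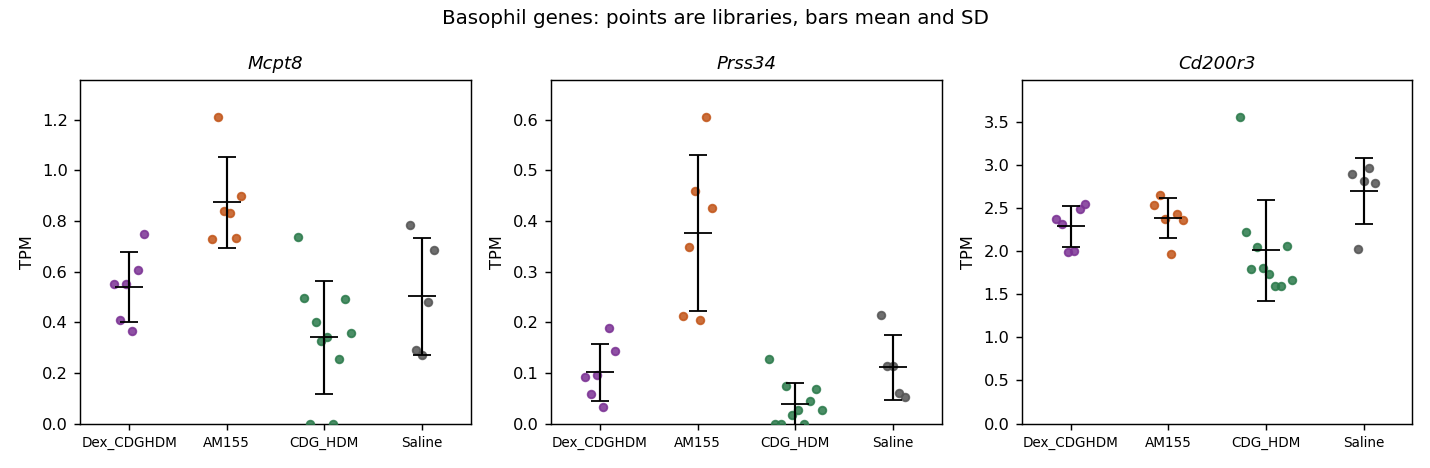
Linear TPM (vertical axes from 0) of the basophil protease genes Mcpt8 and Prss34 and of the basophil surface receptor gene Cd200r3, with a point per library and bars for the mean and SD. The AM155 mean is above that of each other group for Mcpt8 (0.874 TPM) and Prss34 (0.376 TPM), whereas for Cd200r3 (2.39 TPM) it lies below the Saline mean (2.70 TPM).

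Other basophil genes were compared by limma with adjustment over all tested genes, and none was called in AM155 minus CDG_HDM. The permutation tests of Mcpt8 and Prss34 were adjusted over those tests alone, so passing there and failing here rest on unequal thresholds. Cd200r3, an activating receptor of basophils and mast cells, averaged 2.39 ± 0.234 TPM in AM155 and 2.01 ± 0.584 TPM in CDG_HDM (adjusted p = 0.684). Its CDG_HDM median was 1.80 TPM, with CDG_HDM 3 highest at 3.56 TPM, and AM155 ran from 1.96 to 2.65 TPM. Fcer1a averaged 1.15 ± 0.155 TPM in AM155 and 0.918 ± 0.188 TPM in CDG_HDM (limma p = 0.0283, adjusted p = 0.663). Gata1, a factor of basophils, mast cells, erythroid cells and megakaryocytes, averaged 8.97 ± 1.27 TPM and 9.87 ± 1.05 TPM (adjusted p = 0.695).

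Of 13 tested neutrophil markers, 4 were called higher in AM155 minus CDG_HDM and 9 were not called, where 0.103% of all genes were called. Those higher were Ngp (log2 change 2.36), Camp (1.71), S100a8 (1.41) and S100a9 (1.37). S100a8 averaged 399 TPM in AM155 and 352 TPM in Saline, and S100a9 536 and 482 TPM. After group means were subtracted, Mcpt8 had a Pearson r of 0.50 to the neutrophil markers (0.36 after median-of-ratios scaling). This was not particular to them: its r was 0.48 to the megakaryocyte and progenitor markers (0.35 after scaling). To the eosinophil markers it was 0.47 (0.30 after scaling) and to the endothelial markers 0.445 (0.295 after scaling). Ngp and Camp, both secondary granule genes, were also called lower in Dex_CDGHDM minus AM155 (-1.76 and -1.26). The summed level of the 14 neutrophil markers was 449 to 1115 TPM in Dex_CDGHDM, 734 to 1928 TPM in AM155, 283 to 701 TPM in CDG_HDM and 653 to 1327 TPM in Saline, with no marker at 0 in all libraries of a group. Their part in the Mcpt8 and Prss34 values was not tested. Among the other mast cell genes, Gzmb, granzyme B, which cytotoxic lymphocytes also express, was lower in Dex_CDGHDM (2.95 ± 0.702 TPM) than in AM155 (6.63 ± 1.41 TPM), with a log2 change of -0.95 ± 0.167 (adjusted p = 0.00893).

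Around the members, the machinery of mast cells and basophils did not move as a block in CDG_HDM minus Saline. Of 19 tested other mast cell genes, 6 were called higher and 3 lower, where 9.35% of all tested genes were called higher and 22.8% lower. The median change was -0.08, and slightly positive under the 3 scalings (0.01 to 0.06). Those higher included Rgs13 (0.97), a regulator of G protein signalling also made by germinal centre B cells, Lat2 (0.86), an adaptor shared with B cells and macrophages, and Hpgds (0.81), the prostaglandin D2 synthase shared with macrophages. Rgs13 reached 1 TPM in 7 CDG_HDM, 3 AM155, 1 Dex_CDGHDM and 0 Saline libraries. The CDG_HDM libraries, where it was high, thus took it past the filter, and its call carries that selection. Cd63 (0.62), a granule membrane protein found in many cells, rose as well. Il1rl1, also on this list, was among the 3 called lower, with a mean of 5.35 TPM in CDG_HDM and 8.27 TPM in Saline. Of 14 tested basophil genes, 4 were higher and 4 lower (6 higher and 3 to 4 lower under the 3 scalings), among them Cd69 (0.62), an activation antigen, Itga2 (-0.59), an integrin chain, Hgf (-0.42), a growth factor, and Cyp11a1 (0.38), a steroid-forming enzyme.

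IgE receptor signalling genes were mostly called higher, 14 of 23 against 2 lower (9.35% and 22.8% of all tested genes), with a median of 0.58. They included Lat (1.26), Vav1 (1.03) and Lcp2 (0.98), which act downstream of antigen receptors in T cells as well. Of 20 tested growth and activation ligands and receptors, 12 were higher and 5 lower. Csf2rb2 (0.81), a receptor chain for IL-3, C3ar1 (1.24), the receptor of complement C3a, and Vcam1 (0.81), the adhesion molecule that mast cell progenitors use to enter lung, rose, whereas Il1rl1 (-0.56), the IL-33 receptor, and Kitl fell.

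Of 24 tested genes for mediator synthesis, storage and histamine receptors, 7 were higher and 4 lower (9.35% and 22.8% of all tested genes). Under the 3 scalings 11 to 14 were higher and 2 lower. Ctsc (0.79), the protease that activates granule proteases, and Cysltr2 (0.67), a leukotriene receptor, rose, and Mmp9 (-0.86), a matrix protease that neutrophils carry, fell. Eosinophil markers had 2 of 6 higher, Prg2 (0.66) and Ear2 (0.46), and 1 lower, Ccr3 (-0.57), a chemokine receptor that basophils share. Markers of innate lymphoid cells and T helper 2 cells had 3 of 10 lower, near the 22.8% of all tested genes called lower. These were Il1rl1, Ptgdr2 (-0.34) and Il5 (-0.28), and the Il5 call ended under all 3 scalings (limma adjusted p = 0.107 to 0.327).

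**Figure D4:**
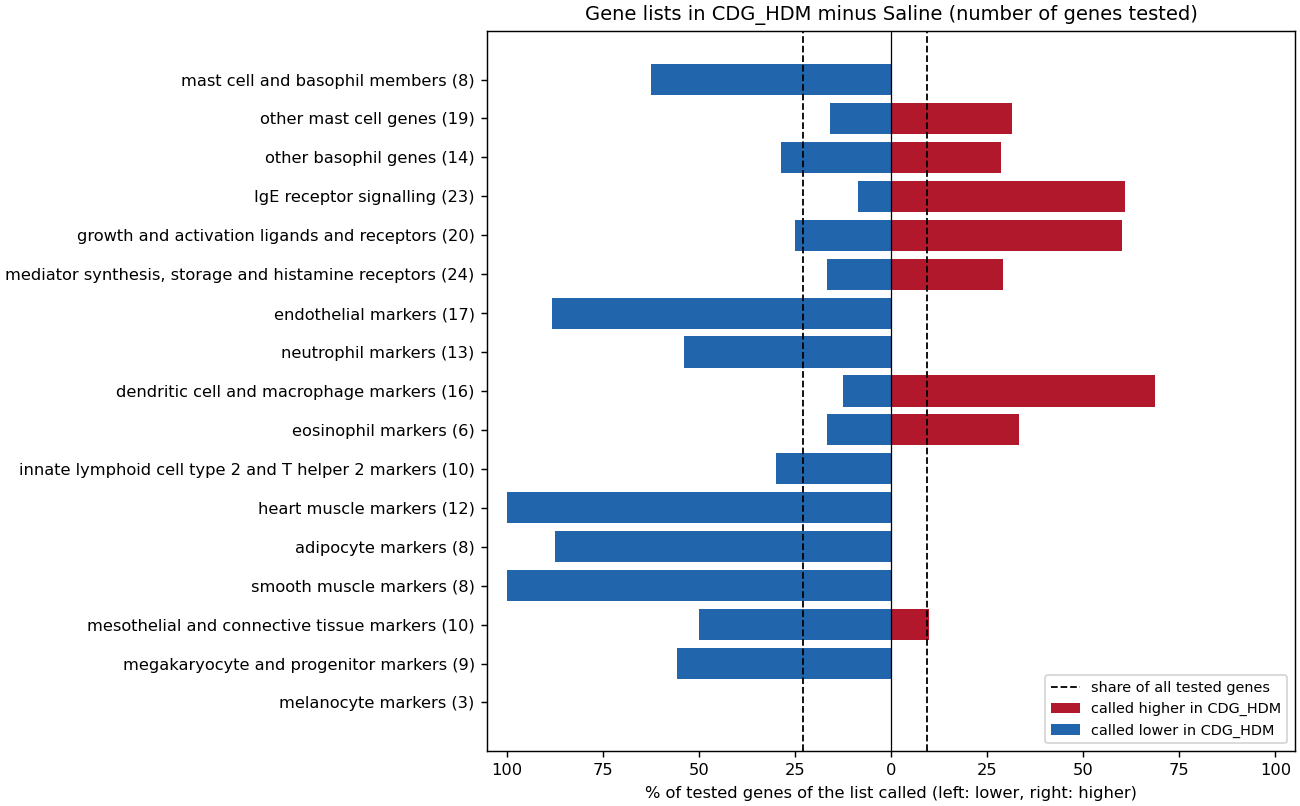
Share of tested genes called lower (left) and higher (right) in CDG_HDM minus Saline for the members and 16 other gene lists, with the number tested in brackets and dashed lines at the share over all tested genes (22.8% lower and 9.35% higher). The members, with 5 of 8 called lower and 0 higher, lie on the side of the endothelial (15 of 17) and muscle markers, opposite to IgE receptor signalling.

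Markers of several structural tissues were lower beside the members. Endothelial markers had 15 of 17 called lower (22.8% of all tested genes were) with a median change of -0.90, among them Tek (-1.36), Kdr (-1.09), Ramp2 (-1.07) and Car4 (-1.04). Their summed level was 1722 to 2835 TPM in Dex_CDGHDM, 1455 to 2646 TPM in AM155, 1482 to 2917 TPM in CDG_HDM and 3487 to 4076 TPM in Saline. Under the 3 scalings 15 of 17 were still called lower, with medians of -0.82 to -0.74. Smooth muscle markers had 8 of 8 lower (sum 168 to 456 TPM in CDG_HDM, 640 to 861 TPM in Saline), led by Cnn1 (-1.49), Acta2 (-1.20) and Actg2 (-1.14), which encode contractile proteins.

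Heart muscle markers had 12 of 12 lower (122 to 478 TPM in CDG_HDM, 639 to 1835 TPM in Saline) and adipocyte markers 7 of 8, or 6 under each of the 3 scalings (39.1 to 144 TPM in CDG_HDM, 285 to 468 TPM in Saline). Mesothelial and connective tissue markers had 5 of 10 lower and 1 higher, or 4 lower and 2 higher under each scaling, with summed levels that overlapped (273 to 438 TPM in CDG_HDM, 374 to 420 TPM in Saline). Neutrophil markers had 7 of 13 lower (6 with 1 common sum), and megakaryocyte and progenitor markers 5 of 9, or 4 lower and 1 higher with 1 common sum (sum 538 to 751 TPM in CDG_HDM, 749 to 849 TPM in Saline). The 3 tested melanocyte markers had a median change of -0.07. Beside these counts, 22.8% of all tested genes were called lower and 9.35% higher. No marker of these lists was at 0 in all libraries of a group. The part of these tissues in the lower Cpa3, Tpsb2, Kit and Gata2 values was not tested.

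Within groups, the members did not vary as 1 unit. After each group's mean was subtracted from log2(TPM + 1), Kit and Gata2 had a Pearson r of 0.79 over the 27 libraries (0.64 after median-of-ratios scaling), and Mcpt4 and Tpsb2 of 0.63 (0.62 after scaling). Cpa3 and Kit had 0.56 before scaling and 0.14 after it. Fcer1a had an r of -0.25 to Gata2 (-0.46 after scaling), 0.05 to Cpa3 (-0.14 after scaling) and 0.29 to Ms4a2 (0.14 after scaling). These r describe libraries that share a TPM scale, and the depth behind each is unknown.

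Kit and Gata2 followed the endothelial markers within groups, with an r of 0.92 and 0.89 to their mean (0.82 and 0.81 after scaling). Their r to the megakaryocyte and progenitor markers was 0.91 and 0.82 (0.71 and 0.66 after scaling), and to smooth muscle markers 0.88 and 0.82 (0.74 and 0.71 after scaling). To the other mast cell genes the r of Kit was 0.61 before scaling and -0.52 after it, and that of Gata2 0.40 and -0.59. Mcpt4 stood nearer to heart muscle (0.70, and 0.61 after scaling) and adipocyte markers (0.71, and 0.58 after scaling) than to the other mast cell genes (0.44, and 0.14 after scaling). Ms4a2 had an r of 0.83 to the other basophil genes and of 0.80 to the megakaryocyte and progenitor markers (0.45 each after scaling). Its r to the other mast cell genes was 0.78 (0.18 after scaling). To the innate lymphoid cell and T helper 2 markers the r was 0.80 for Ms4a2, 0.83 for Kit and 0.79 for Gata2 (0.41, 0.445 and 0.57 after scaling). Some of these lists share genes.

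**Figure D5:**
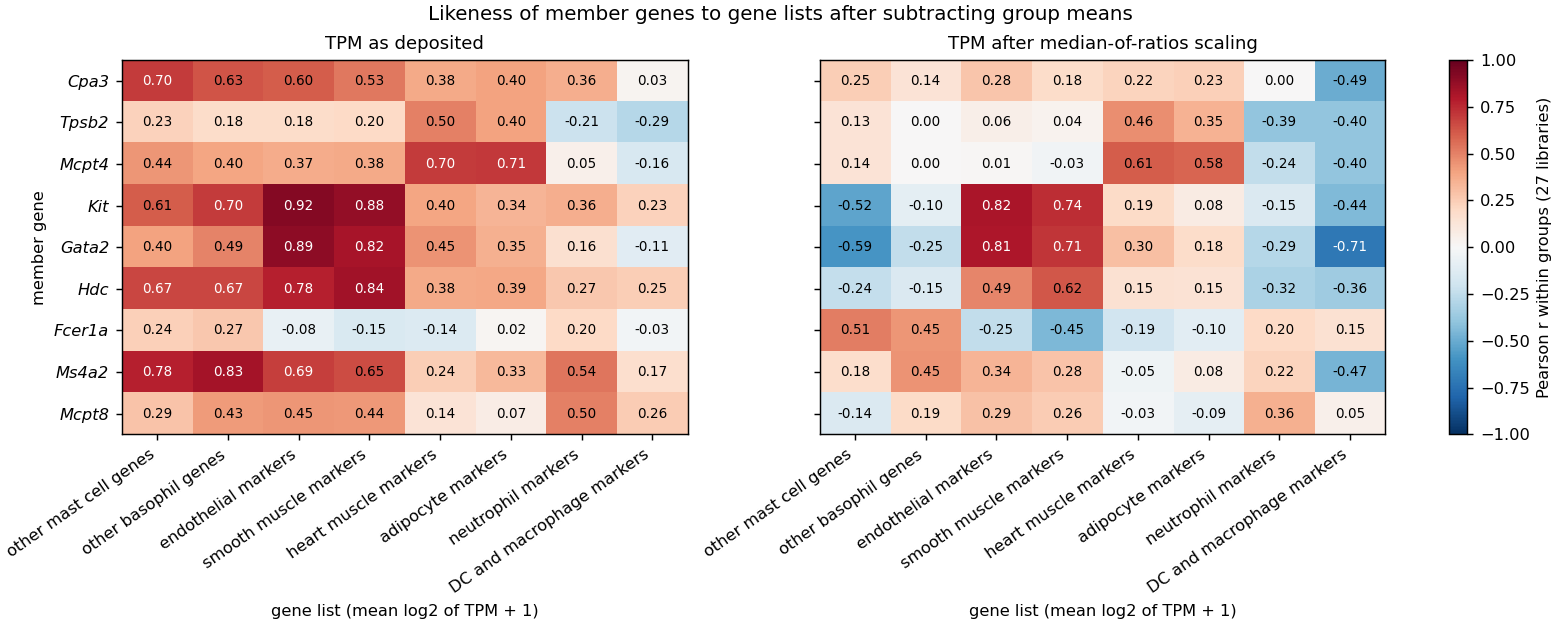
Pearson r between each member (rows) and the mean log2(TPM + 1) of 8 gene lists (columns) after group means were subtracted, over 27 libraries, as deposited (left) and after median-of-ratios scaling (right). The r of Kit and Gata2 to endothelial markers stays above 0.8 in both panels, while their r to other mast cell genes changes sign.

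Among all tested genes, those most like Kit within groups were Mospd2 (r = 0.97), Itga1 (0.95), Rasal2 (0.95), Daam1 (0.95) and Sema6a (0.945). Those most like Gata2 were Bmpr2 (0.93), Fzd4 (0.925), Jun, Notch1 and Adgrl3 (0.914). The genes most like Cpa3 were Mthfd1 (0.89), Fah, Adra1a, Slc1a4 and Cox4i2, and those most like Ms4a2 were Gtpbp4 (0.92), Olfr642, Alg6, Catsperg1 and Dph6. Likeness was lower for the low genes: Ephx2, Kndc1, Atp2c2, Reep6 and Smoc1 led for Mcpt4 (0.78 to 0.82), Cntn1 and Saxo2 for Tpsb2 (0.70 and 0.68), Klrd1 and B3gnt5 for Fcer1a (0.68 and 0.66) and Ndnf and Prkag3 for Mcpt8 (0.76 and 0.75). Ino80, a chromatin remodeller, and Kdm6a, a histone demethylase, led for Hdc (0.91 and 0.90). All these r are before scaling. After median-of-ratios scaling the leading gene had 0.89 for Kit, 0.89 for Gata2, 0.685 for Cpa3, 0.79 for Ms4a2 and 0.75 for Hdc. It had 0.78 for Mcpt4, 0.69 for Tpsb2, 0.70 for Fcer1a and 0.71 for Mcpt8.

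TPM is per transcript length, so levels can be ordered across members. In Saline the order of mean level was Gata2 (64.5 ± 9.19 TPM), Kit (59.7 ± 7.70), Hdc (38.1 ± 4.82), Cpa3 (14.7 ± 1.27), Ms4a2 (4.06 ± 0.959), Mcpt4 (3.52 ± 0.422), Tpsb2 (1.62 ± 0.234), Fcer1a (1.21 ± 0.261) and Mcpt8 (0.502 ± 0.231). The ranges of neighbours overlapped for Gata2 and Kit, Ms4a2 and Mcpt4, and Tpsb2 and Fcer1a. In Dex_CDGHDM the order began with Hdc (39.7 ± 5.38 TPM), Kit (37.7 ± 5.21) and Gata2 (32.6 ± 10.5), and in CDG_HDM with Kit (38.4 ± 8.27), Gata2 (35.2 ± 10.4) and Hdc (34.3 ± 4.64), all 3 overlapping in both groups. The same 3 led in AM155, at 36.4 ± 7.83 TPM for Kit, 32.1 ± 6.69 TPM for Hdc and 30.0 ± 9.16 TPM for Gata2.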

How the data were processed

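Total RNA of 27 lungs was sequenced after ribosomal depletion with stranded, paired-end libraries, per the labels. The authors deposited TPM per gene symbol for linear and for circular RNA. The submitters' processing notes name mm10 and CASAVA 1.9. Which aligner, quantifier and annotation were used is not given in these sources. TPM holds no counts, so depth, counting intervals and floors are unknown.

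Linear TPM became log2(TPM + 1) for the 17437 of 21742 symbols with at least 1 TPM in at least 5 libraries. All 27 libraries entered 1 model by group (limma 3.58.1, R 4.3.3, eBayes with a trend), with 6 contrasts, two-sided, Benjamini-Hochberg adjusted over all genes at 0.05, on a scale that understates changes of low genes. The model was tested on simulated data. Exact permutation tests (scipy 1.17.1) compared mean TPM of Mcpt8 and Prss34. Labels do not pair same-numbered mice, and each library is 1 mouse.

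The members and the 16 other gene lists were chosen with earlier results of these data known. Genes named are the members and, by rule, at most the 4 called genes per list with the largest change in CDG_HDM minus Saline, any called in AM155 minus CDG_HDM, Dex_CDGHDM minus CDG_HDM or Dex_CDGHDM minus AM155, and at most the 5 most like each member. Exceptions chosen after their values were seen are Prss34, Cd200r3, Gata1, Tpsab1, Mcpt1, Mcpt9 and Mrgprb2. Alternatives were 2 pseudocounts, no filter, 3 scalings, fits of 2 groups, a replicate block, no trend, library weights and leaving out each library. Promoters and positions are from RefSeq (GRCm38.p6, the assembly of mm10).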

Additional observations from a re-analysis of the deposited data

Results flagged for a closer look

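Of 36 groups of libraries (9 members in 4 groups), 4 held a library that stood apart, where chance gives about 1 in 20. Saline 4 had 12.4 TPM of Cpa3, below the next lowest Saline library at 14.9 TPM. Saline 8 had 1.21 TPM of Tpsb2, below the next at 1.65 TPM, and 1.66 TPM of Fcer1a, above the next at 1.15 TPM. AM155 3 had 1.21 TPM of Mcpt8, above the next AM155 library at 0.899 TPM, and without it AM155 minus CDG_HDM for Mcpt8 had an exact permutation p of 0.00200.

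Mcpt8 had a difference of means of -0.334 TPM in Dex_CDGHDM minus AM155 (exact permutation p = 0.00649, adjusted 0.0195 over 12 tests). Mcpt8 stayed below the filter, and this test was chosen after the values were seen. In limma without the filter, adjusted over all genes, the contrast was not called (log2 change -0.28, adjusted p = 0.579). All 6 Dex_CDGHDM libraries lay below the AM155 mean. Leaving out 1 library at a time gave -0.376 to -0.266 TPM and an exact p of 0.00433 to 0.0130.

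Circular RNA was outside the comparisons. Circular Kit was 7.61 TPM in CDG_HDM 9, 7.28 TPM in CDG_HDM 7 and 7.06 TPM in Saline 2, and listed at 0 in the other libraries. Circular Hdc was 37.0 TPM in Dex_CDGHDM 1 and 28.0 TPM in CDG_HDM 9, against listed at 0 in the other libraries, Saline among them. The other members were not analysed here for circular RNA.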

How the results depend on the processing

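Across members and contrasts, 1875 of 1932 single values kept their side of the threshold, 41 lost the call and 16 gained it. The sign changed in 83, in 19 pairs of member and contrast, and none of these was called in either setting. In CDG_HDM minus Saline these were Mcpt4 (-0.13 to 0.06), Ms4a2 (-0.20 to 0.06) and Hdc (-0.21 to 0.01). In AM155 minus CDG_HDM, Cpa3 ran between -0.40 and 0.09. Genes called in CDG_HDM minus Saline were 5607, and 3315 with a replicate block and 9822 with library weights. In AM155 minus Saline they were 7059, and 4518 without the 3 libraries high in circular RNA. In Dex_CDGHDM minus Saline they were 4376, and 2815 with the block and 9084 with library weights, and the members called there were 4, and 2 with the block, 6 with library weights, 3 with each of the 3 scalings and 2 to 5 with 1 library left out (2 without Saline 2, 5 or 10 or Dex_CDGHDM 4 or 6).

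In AM155 minus CDG_HDM, 18 genes were called. The count was 34 with median-of-ratios scaling, 33 with quantile normalization, 38 with 1 common sum, 10 with the block, 41 without a filter and with median-of-ratios scaling, and 7 to 21 with 1 library left out (7 without AM155 8, 9 without AM155 3 or 5). Members called were 0, and 1 without the filter, with or without median-of-ratios scaling, which is Mcpt8.

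In Dex_CDGHDM minus CDG_HDM, 1 gene was called. The count was 0 with either pseudocount, the block, no trend, or no filter and a pseudocount of 0.1; 2 without the filter or with the 2 groups alone; 48, 64 and 35 with median-of-ratios, quantile and common-sum scaling; 11 with library weights; 30 without a filter and with median-of-ratios scaling; 3 without the 3 libraries; and 0 to 2 with 1 library left out. Members called were 0, and 1 (Ms4a2) with quantile normalization.

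In Dex_CDGHDM minus AM155, 14 genes were called. The count was 103, 112 and 61 under the same 3 scalings, 22 with the 2 groups alone, 26 with library weights, 87 without a filter and with median-of-ratios scaling, 3 without the 3 libraries, and 9 to 34 with 1 library left out (9 without AM155 8 or Dex_CDGHDM 2, 3 or 4; 22 without Saline 4; 34 without AM155 11). Members called were 0, and 1 with median-of-ratios scaling (with or without the filter), quantile normalization or the block (Cpa3, adjusted p = 0.0255), and 0 to 1 with 1 library left out. The cause was not tested. Fits with 2 choices changed together or without the 3 libraries were chosen after seeing the data. Mcpt8 kept its permutation calls after median-of-ratios scaling. Same-numbered mice had correlations of deviations of -0.239 to 0.274. Differently numbered mice were not compared, so this cannot decide whether the numbers pair mice. TPM without depth limits what can be said of Mcpt8 and Prss34.

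The split of higher and lower calls moved with scaling. In CDG_HDM minus Saline it was 3615 and 4224 with quantile normalization and 4567 and 2705 with 1 common sum. In AM155 minus Saline it was 1364 and 5695, and 3521 and 3438 with median-of-ratios scaling. In Dex_CDGHDM minus Saline it was 1324 and 3052, and 3152 and 2916 with median-of-ratios scaling.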
